A study of Arabidopsis thaliana with 18 samples.

Results

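The 14-3-3 genes GRF1 to GRF10 (general regulatory factor) of Arabidopsis were described here from TIF-seq, in which the capped 5′ end and the poly(A) 3′ end of 1 RNA molecule are sequenced as a pair, so that each transcription start site (TSS) is joined to its polyadenylation site (PAS). The members were the 10 loci by their locus identifiers, and every TIF-cluster on the strand of one of these genes was taken. All 10 have clusters, among 14377 coding genes with a cluster in any list, and their 14535 read pairs lie in 742 clusters. The samples were seedlings of 14 days, grown alike at 22 °C by day. The groups were hen2-2 after 3 h at 4 °C, hen2-2 at 22 °C, wild type after 3 h at 4 °C, spt16-1 at 22 °C, ssrp1-2 at 22 °C and wild type (Col-0) at 22 °C. HEN2 is an RNA helicase that works with the nuclear exosome, and SPT16 and SSRP1 are the subunits of the histone chaperone FACT. Each group is 1 deposited list that pools 2 libraries, so no value has a replicate error and no test between groups was possible. Intervals in brackets are 95% intervals and cover counting error only.

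14-3-3 proteins are dimers that bind phosphorylated motifs in client proteins and change their activity, partners or location. In plants the family is split into the non-epsilon group, which holds GRF1 to GRF8, and the epsilon group, which holds GRF9 and GRF10. Known clients include nitrate reductase, plasma membrane proton pumps, the brassinosteroid factors BZR1 and BES1, and phototropins. In the cold, the kinase CRPK1 phosphorylates 14-3-3 proteins, which then enter the nucleus and promote the breakdown of CBF factors.

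The lists hold 410655 (hen2-2 at 4 °C) to 924907 (spt16-1) read pairs, so that 1 read pair is worth 2.44 to 1.08 RPM (read pairs scaled to a list total of 1000000). HEN2 has no cluster in either hen2-2 list, against 4 read pairs in wild type at 22 °C and none in wild type at 4 °C, and SSRP1 has none in ssrp1-2, against 5 in wild type. SPT16 has 31 read pairs in the list labelled spt16-1, against 30 in wild type, so its level does not check that label, and spt16-1 stands below for the list so labelled. Of 6 cold-response genes, CBF1, CBF2 and CBF3 have clusters in both 4 °C lists and none at 22 °C. The others were mixed in wild type, where RD29A had 162 RPM at 4 °C against 65.2 at 22 °C. COR15A had 69.6 against 65.2 there, and KIN1 4.35 against 75.9. In hen2-2, RD29A had 244 RPM at 4 °C against 90.6 at 22 °C, COR15A 90.1 against 37.8, and KIN1 107 against 110. The 4 markers of green tissue are present in all 6 lists and the pollen marker in none. Of the green markers RBCS1A, a small subunit of Rubisco, was uneven, with 9414 RPM in hen2-2 at 4 °C, 5664 in hen2-2 at 22 °C, 1443 in wild type at 4 °C, 2339 in spt16-1, 1563 in ssrp1-2 and 5048 in wild type at 22 °C, and the other 3 were under 2-fold apart in all 6 comparisons. Of the 2 seed storage genes, CRA1 has 6 read pairs in hen2-2 at 4 °C and 41 in hen2-2 at 22 °C and no cluster elsewhere, and SESA2 has none. The part of these differences in the results below was not tested. In RNA of entire seedlings, fewer cells of a type and less RNA per cell cannot be told apart.

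The finding at GRF10 turns on where its transcripts end, so 4 stretches of 30 bases that run up to and include a 3′ end are shown. They were read from the minus strand of chromosome 1 of TAIR10.1, whose chromosome sequences are those of TAIR10. Capitals mark GAAGAA, a repeat chosen after the sequences were seen.
GRF10 early end in the 5′-UTR (chr1:7881126-7881155): agacttcagagagacagagaagGAAGAAga
GRF10 early end in the first coding exon (chr1:7881055-7881084): agcaggtttacttggctaagctctccgagc
GRF10 early end in a later coding exon (chr1:7880534-7880563): actatcttccattgagcagaaggaagagtc
GRF10 most used full-length end (chr1:7878861-7878890): ttttgtttatcagaatattaggcgtatcat
The second most used early end, 1 nt before the start codon, is not printed because its stretch overlaps the first one, and it holds GAAGAA repeats, 20 A and 1 T. The stretch at the first early end has 15 A and 2 T, and the full-length one has 8 A and 14 T. On either strand, GAAGAA is in 15.0% of 2309 such stretches at the most used end of short clusters at gene starts, and in 4.14% of 13503 at the most used full-length end. The polyadenylation hexamer AATAAA is in none of these 4 stretches on either strand, and it is in 14.4% of the stretches at full-length ends and 2.30% of those at short clusters. Among the full-length ends of the 10 members, the only match is at GRF1 and lies on the strand opposite to the transcript, so none has AATAAA in the RNA within these 30 bases. A match of letters is a description and not a site.

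The epsilon genes GRF10 and GRF9 gave the highest RPM in the family and GRF4 the lowest. GRF10 (AT1G22300, 14-3-3 epsilon) had 728 RPM in hen2-2 at 4 °C, 1076 in hen2-2 at 22 °C, 874 in wild type at 4 °C, 795 in spt16-1, 1028 in ssrp1-2 and 1056 in wild type at 22 °C. GRF9 (AT2G42590, 14-3-3 mu) had 767 RPM in hen2-2 at 4 °C, 773 in hen2-2 at 22 °C, 775 in wild type at 4 °C, 758 in spt16-1, 787 in ssrp1-2 and 760 in wild type at 22 °C. GRF9 was the steadiest gene of the set, with a highest value 1.04 times its lowest, and its 6 intervals overlap one another. Among 1129 coding genes with at least 50 read pairs in every list, none had a smaller range than the 0.05 log2 units of GRF9, and the median range was 0.89. GRF10 had a range of 0.56, and 18.7% of these genes had a smaller one. These ranges include counting error, which is larger for genes near 50 read pairs than for GRF9, with 315 to 701 a list. Genes were not compared at equal depth.

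The non-epsilon genes spread over a wide range of levels. GRF3 (AT5G38480, 14-3-3 psi) had its highest value, 478 RPM, in hen2-2 at 22 °C and its lowest, 317, in wild type at 4 °C, and GRF2 (AT1G78300, 14-3-3 omega) had its highest, 407, in wild type at 4 °C and its lowest, 274, in wild type at 22 °C. GRF6 (AT5G10450, 14-3-3 lambda, a substrate of CRPK1) lay between 183 in hen2-2 at 4 °C and 342 in spt16-1. GRF5 (AT5G16050, 14-3-3 upsilon) lay between 176 in ssrp1-2 and 251 in hen2-2 at 22 °C, and GRF1 (AT4G09000, 14-3-3 chi) between 141 in hen2-2 at 4 °C and 214 in ssrp1-2. Lower still were GRF7 (AT3G02520, 14-3-3 nu), with 43.8 in hen2-2 at 4 °C and 135 in ssrp1-2 as its extremes, and GRF8 (AT5G65430, 14-3-3 kappa), with 73.0 in hen2-2 at 22 °C and 112 in ssrp1-2. GRF4 (AT1G35160, 14-3-3 phi) rested on only 6 to 17 read pairs a list, which is 6.49 to 24.1 RPM.

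In the order of the medians over the 6 lists (GRF10, GRF9, GRF3, GRF2, GRF6, GRF5, GRF1, GRF7, GRF8, GRF4), 3 gaps separate neighbours whose ranges do not overlap. They lie between GRF9 and GRF3, between GRF1 and GRF7, and between GRF8 and GRF4. The ranges of all other neighbours overlap. Per kilobase of gene span the order differs in 1 place, GRF5 (median 101) standing above GRF6 (92.0), and GRF10 (361) and GRF9 (358) are then almost level. Of the read pairs at the 10 loci, GRF9 and GRF10 held 49.8% in hen2-2 at 4 °C and 52.7% in hen2-2 at 22 °C. They held 51.8% in wild type at 4 °C, 48.6% in spt16-1, 50.4% in ssrp1-2 and 54.2% in wild type at 22 °C. The other 3 family genes were nearly absent. GRF11 has 7 read pairs in hen2-2 at 4 °C, 10 in hen2-2 at 22 °C and 3 in spt16-1, and no cluster in the other 3 lists, while GRF12 and GRF13 have none in any.

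**Figure D1:**
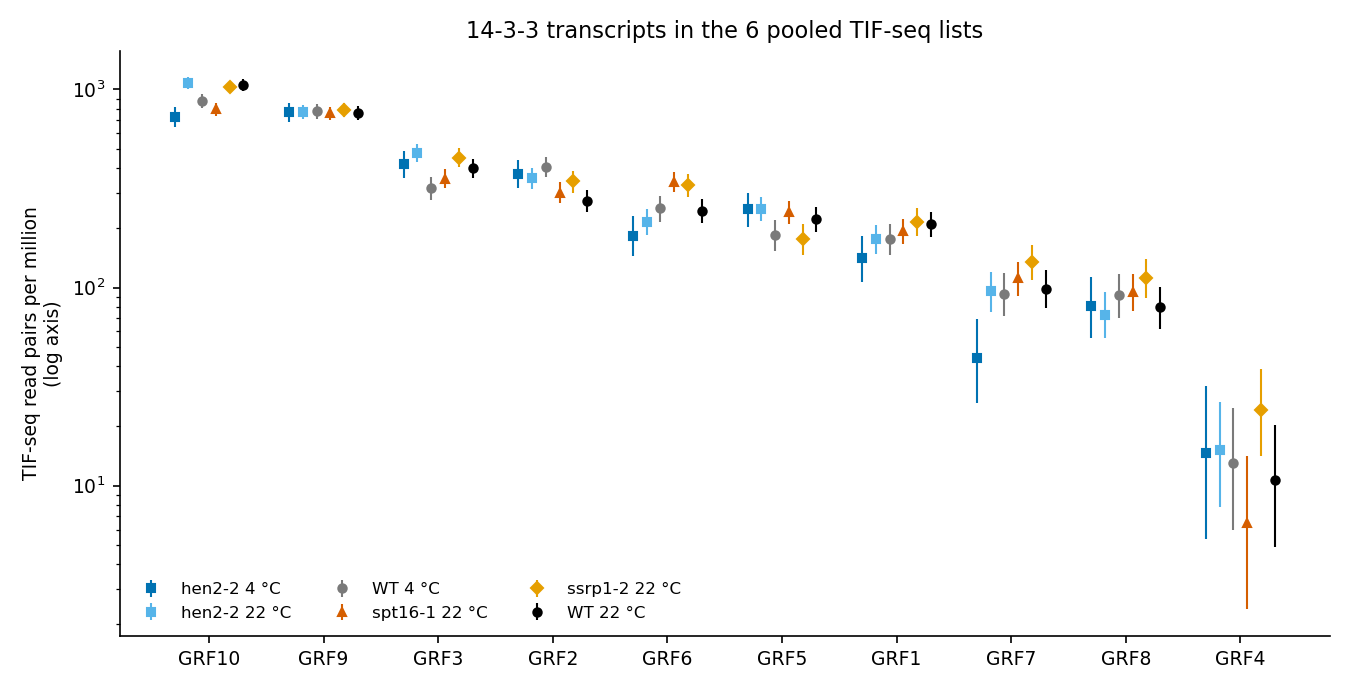
TIF-seq RPM at each 14-3-3 locus (log axis) in the 6 pooled lists, ordered by the median over lists; bars are 95% Poisson intervals of the read pairs and there are no replicates. GRF9 stays between 758 and 787 in all lists, GRF7 lies at 43.8 in hen2-2 at 4 °C, and GRF4 lies at 6.49 to 24.1.

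Few 14-3-3 genes were 2-fold apart between any of the compared lists. A gene was counted as called when its 2 lists differed at least 2-fold in RPM, among genes with a cluster in both lists and 20 or more read pairs together. Because 4 of the 6 comparisons share the wild-type list at 22 °C, they are not independent of each other. In hen2-2 against wild type at 22 °C, none of the 10 members was called, against 12.3% of 7055 genes higher and 9.23% lower. The largest positive ratio among members with over 20 read pairs in each list was that of GRF2, with 283 read pairs in hen2-2 against 231 in wild type (log2 ratio 0.38, 0.12 to 0.64). GRF3 had 380 against 338 (0.26, 0.04 to 0.47), and the intervals of the other 8 members include 0. Summed over the 10 loci, the log2 ratio was 0.07 (-0.01 to 0.14), where the median of all genes was 0.09.

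In hen2-2 against wild type at 4 °C, GRF7 was the only member of 9 called. It had 18 read pairs in hen2-2 against 64 in wild type (log2 ratio -1.08, -1.92 to -0.31). Of 5548 genes, 8.17% were called higher and 16.7% lower. All genes had a median of -0.19, and after centring on it the split was 11.2% higher and 12.8% lower and GRF7 stood at -0.89, under 2-fold. GRF5 (0.43, 0.04 to 0.82) and GRF3 (0.40, 0.10 to 0.70) lay on the higher side of 0, and GRF6 (-0.46, -0.87 to -0.06) and GRF10 (-0.26, -0.47 to -0.06) on the lower side. The sum over the 10 loci was -0.08 (-0.19 to 0.02) as deposited and 0.11 after centring. GRF4 was left out of this and of 3 more comparisons for having under 20 read pairs together.

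After 3 h at 4 °C in wild type, no member of 9 was called, against 14.1% of 6694 genes higher and 11.7% lower. GRF2 had the highest ratio, with 281 read pairs at 4 °C against 231 at 22 °C (0.57, 0.32 to 0.83). GRF3, with 219 against 338 (-0.34, -0.59 to -0.09), and GRF10, with 603 against 890 (-0.27, -0.42 to -0.12), lay below 0, and GRF9 was at 0.03 (-0.14 to 0.20). In hen2-2, the same treatment left GRF7 as the only member of 9 called, with 18 read pairs at 4 °C against 76 at 22 °C (-1.13, -1.96 to -0.37). Among 5944 genes, 9.39% were called higher and 17.5% lower, which became 12.4% and 13.5% after centring on the median of all genes, -0.19, and GRF7 then stood at -0.93. GRF10 had 299 against 855 read pairs (-0.56, -0.76 to -0.37), and GRF2 was at 0.07 (-0.22 to 0.36). Whether the effect of cold differs between hen2-2 and wild type was not tested.

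In the list labelled spt16-1 against wild type, none of the 9 members was called. Of 7271 genes, 13.9% were called higher and 8.06% lower, or 11.2% and 10.1% after centring on the median of 0.11. GRF6 had 316 read pairs against 205 (0.49, 0.23 to 0.75), and GRF10 had 735 against 890 (-0.41, -0.55 to -0.27). In ssrp1-2 against wild type, GRF4 was the only member of 10 called, on 17 read pairs against 9 (1.18, -0.07 to 2.52), an interval that includes 0, against 12.3% of 6710 genes higher and 11% lower. GRF6 had 231 against 205 (0.43, 0.15 to 0.71) and GRF2 242 against 231 (0.32, 0.06 to 0.59), and the intervals of GRF7 (0.45, 0.01 to 0.90) and GRF8 (0.50, 0.01 to 0.99) also exclude 0. The median of all genes was 0.08, and the intervals of GRF2, GRF7 and GRF8 include it. Of the 10 genes, GRF6 was the one whose interval lay above 0 in both FACT mutants. The sum over the 10 loci was -0.07 (-0.14 to 0.01) for spt16-1 and 0.10 (0.02 to 0.18) for ssrp1-2, where the interval includes the median of all genes.

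**Figure D2:**
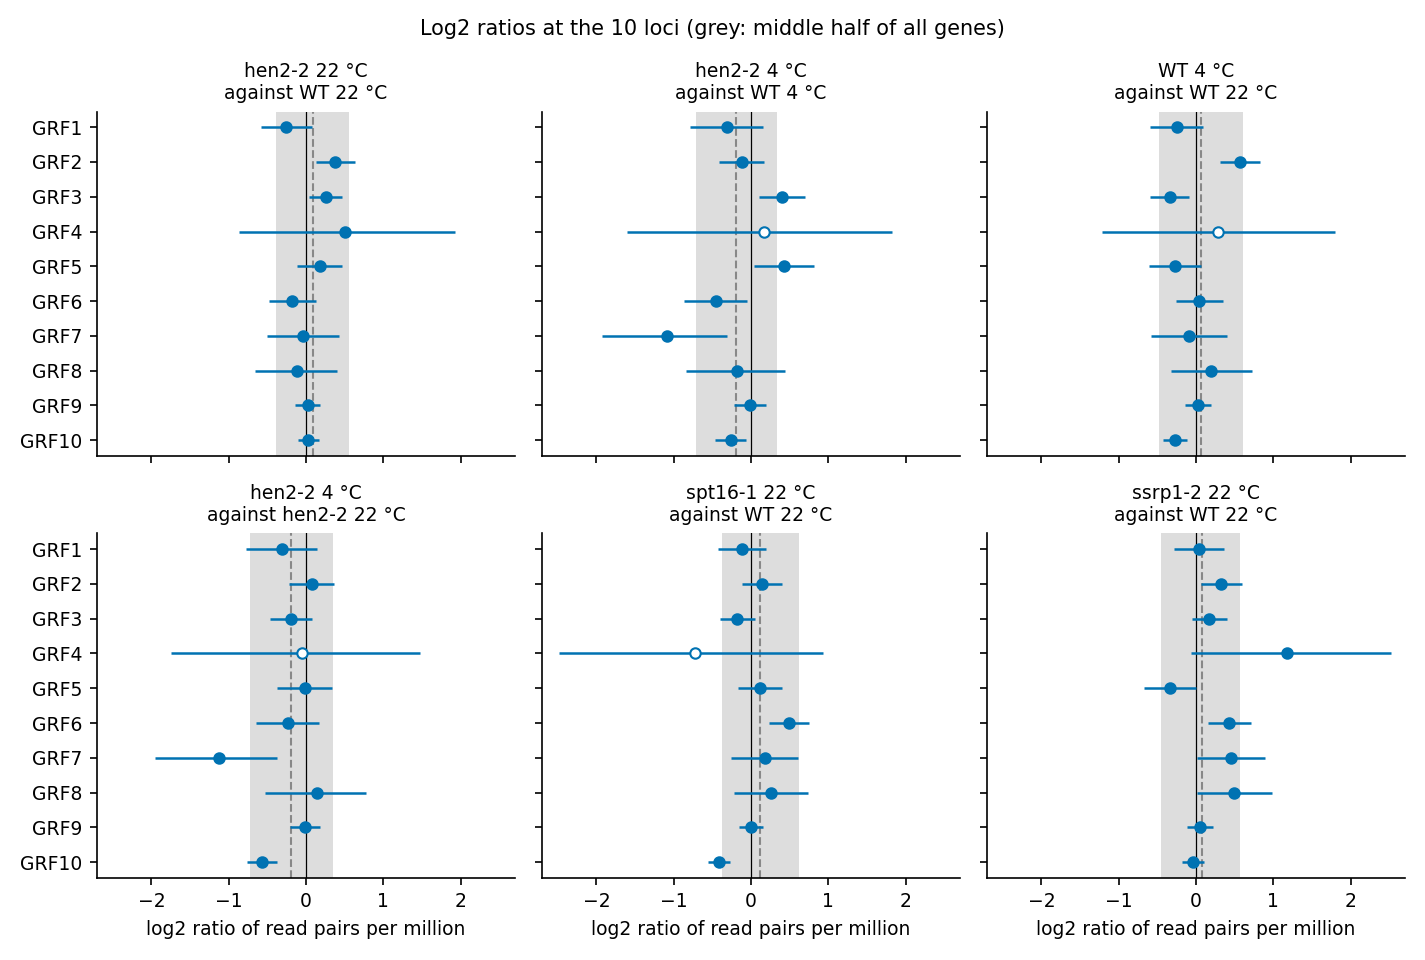
Log2 ratios of RPM at the 10 loci in 6 comparisons, with 95% exact intervals (counting error only); open points have under 20 read pairs together, the grey band runs between the quartiles of all genes and the dashed line their median. GRF7 lies at -1.08 and -1.13 in the 2 comparisons that use hen2-2 at 4 °C, and GRF9 lies near 0 in all 6.

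A list of 17 known partners and clients of 14-3-3 proteins was counted beside the family. None was called in the 3 comparisons that involve a 4 °C list, of 9 to 10 counted in each. Over all genes, 8.17% to 14.1% were called higher there and 11.7% to 17.5% lower. In hen2-2 at 22 °C, 1 of 11 was called, the sucrose phosphate synthase SPS1F, with 13 read pairs against 28 (-1.02, -2.09 to -0.02), where 9.23% of all genes were called lower. In spt16-1, where 13 were counted and 13.9% of all genes were called higher, CRPK1 was called, with 32 against 3 (3.28, 1.60 to 5.63). CRPK1 had 15 read pairs in hen2-2 at 22 °C and 12 in ssrp1-2, with too few together with the 3 of wild type to be counted. In ssrp1-2, 1 of 10 was called, the fructose 2,6-bisphosphate enzyme F2KP with 21 against 55 (-1.13, -1.93 to -0.38), where 11% of all genes were called lower. The median of the list ran from -0.48 (wild type at 4 °C) to 0.10 (spt16-1). Closest in pattern to GRF10 over the 6 lists were CNX1 (AT5G61790, the endoplasmic reticulum chaperone calnexin), AT2G27720 and AT3G58610, with root mean square differences of 0.06, 0.08 and 0.08 log2 units, out of 1128 genes.

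Full-length clusters, which span the whole coding sequence of all isoforms, held 13803 of the 14535 read pairs. The share over the 10 loci was 94.4% (93.0 to 95.6) in hen2-2 at 4 °C, 96.3% (95.5 to 96.9) in hen2-2 at 22 °C, 96.4% (95.6 to 97.1) in wild type at 4 °C, 95.6% (94.8 to 96.3) in spt16-1, 95.3% (94.4 to 96.0) in ssrp1-2 and 91.8% (90.8 to 92.8) in wild type at 22 °C. Over all coding genes it was 82.5% to 89.7%. Wild type at 22 °C had the lowest share, and its interval overlaps none of the others. GRF4 was full length throughout, and GRF1, GRF2, GRF7 and GRF9 were so for 99.3% to 99.8% of their read pairs. GRF3 (97.3%) and GRF5 (97.8%) were a little lower, and GRF8 (91.2%), GRF10 (89.3%) and GRF6 (85.3%) were the lowest.

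Full-length isoforms were most numerous at GRF10, with 11 to 25 clusters a list, and at GRF9, with 13 to 23, where the median over coding genes was 2 or 3. GRF6 had 7 to 14, GRF1 8 to 14, GRF2 9 to 14, GRF3 6 to 11, GRF7 3 to 10, GRF5 5 to 8, GRF8 3 to 5 and GRF4 1 to 3. A listed cluster needs 3 or more read pairs, so a gene with more read pairs can have more clusters listed. Over the 6 lists GRF10 had 4107 read pairs, GRF9 3361 and GRF4 59. The numbers of isoforms were not compared at equal depth. Many clusters differ by a few bases only: clusters within 50 nt at both ends, when merged, left 21 of 67 isoforms in hen2-2 at 4 °C and 29 of 104 in wild type at 22 °C. The largest single cluster of the family was a GRF10 isoform in wild type at 22 °C, at chr1:7878883-7881199, with 287 read pairs, 32.2% of the locus. At GRF3 the isoform chr5:15409737-15411518 held 196 read pairs, 58.0% of the locus in the same list, and at GRF9 the isoform chr2:17731871-17733929 held 212, 33.1%.

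At most loci the 5′ ends of full-length clusters lay downstream of the annotated start. Their quartiles by read pairs lay close together, such as 97 and 111 nt past that start at GRF9 and 197 and 229 nt at GRF10. The median 5′ end was 22 nt past the annotated start of the gene at GRF5, 47 nt at GRF3, 72 nt at GRF7, 92 nt at GRF1, 103 nt at GRF9, 127 nt at GRF4, 205 nt at GRF10, 240 nt at GRF6, 273 nt at GRF8 and 350 nt at GRF2. The annotation gives several starts for 7 of the genes, and in each of the 7 all full-length read pairs began nearest to the same one. It was the most downstream start at GRF3, GRF4, GRF6, GRF8, GRF9 and GRF10, which lies at 176 nt for GRF10, 190 nt for GRF6 and 251 nt for GRF8. At GRF3 and GRF4 every full-length 5′ end lay past both annotated starts, so the nearest could only be the downstream one. Some ends lay before the nearest start. In ssrp1-2, 496 of 666 GRF10 read pairs began at or past it, and in spt16-1, 15 of 82 at GRF8. The nearest start does not show which isoform was used. At GRF5 all 940 began in the first exon of the upstream isoform and none in that of the isoform that starts at 96 nt. No locus had a pair of 5′ zones of at least 10% each, with ends under 20 nt apart joined. Joining also made wide zones, from 9 to 138 nt at GRF9 and from 162 to 292 nt at GRF10, so separate starts within them are not resolved. The largest lesser zone among the genes with over 100 read pairs was at GRF9, 163 to 178 nt past the annotated start, with 8.25% of full-length read pairs in hen2-2 at 4 °C, 8.79% in hen2-2 at 22 °C, 4.49% in wild type at 4 °C, 7.88% in spt16-1, 9.27% in ssrp1-2 and 5.62% in wild type at 22 °C.

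At the 3′ side, 1 zone of PAS dominated at nearly every locus, with ends under 20 nt apart joined. Such a zone is not 1 site, because joining lets it grow wide. The main zone ran from 125 to 303 nt past the coding end at GRF6, 110 to 250 nt at GRF5 and 176 to 302 nt at GRF9. The median full-length PAS lay 195 nt (GRF5) to 305 nt (GRF1) past the coding end, and 19 nt (GRF1) to 378 nt (GRF6) short of the annotated gene end. Only GRF1 and GRF4 had 2 zones of at least 10% each, and none had when ends under 50 nt apart were joined. GRF1 ended at 295 to 322 nt past the coding end for 76.1% of its read pairs and at 191 to 235 nt for 17.4%. The most proximal GRF1 zone, at 88 to 147 nt, had no listed read pair of 58 in hen2-2 at 4 °C and none of 139 in hen2-2 at 22 °C (upper limit of the interval 2.69%). It had 13 of 121 in wild type at 4 °C (10.7%, 6.39 to 17.5) and 15 of 176 in wild type at 22 °C (8.52%, 5.23 to 13.6). The FACT mutants lay between, with 8 of 178 in spt16-1 and 7 of 151 in ssrp1-2. The clusters of this zone held 3 to 5 read pairs each, and the study had removed those under 3. Read pairs in smaller clusters are missing from these counts, and the intervals do not cover that.

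At GRF3 a proximal PAS zone lay 136 to 180 nt past the coding end. It was used more in each 4 °C list than in the 22 °C list of the same genotype. It took 12.8% (8.60 to 18.6) in hen2-2 at 4 °C, against 3.42% (2.01 to 5.76) in hen2-2 at 22 °C, and 16.9% (12.5 to 22.4) in wild type at 4 °C, against 7.69% (5.30 to 11.0) in wild type at 22 °C. The intervals overlap in neither pair. In spt16-1 it took 3.96% (2.33 to 6.66) and in ssrp1-2 8.78% (6.14 to 12.4). This zone is not 1 site. In hen2-2 at 4 °C, 19 of its 22 read pairs were a cluster ending at 178 nt. In wild type at 4 °C, 30 of 37 were a cluster ending at 164 nt. The main zone begins at 201 nt, so the 2 zones merge when ends under 50 nt apart are joined. At GRF10 the most distal zone, 365 to 404 nt past the coding end, took 4.44% (2.56 to 7.61) in hen2-2 at 4 °C, 9.36% (7.54 to 11.6) in hen2-2 at 22 °C, 3.87% (2.59 to 5.74) in wild type at 4 °C, 3.64% (2.48 to 5.32) in spt16-1, 3.66% (2.51 to 5.30) in ssrp1-2 and 0.932% (0.452 to 1.91) in wild type at 22 °C. Wild type at 22 °C was below all 5 other lists, with no overlap of intervals. At GRF7 a zone 128 to 131 nt past the coding end held 7 of 73 read pairs in hen2-2 at 22 °C, 14 of 103 in spt16-1 and 13 of 95 in ssrp1-2. In wild type at 22 °C it held no listed read pair of 83 (upper limit of the interval 4.42%), under the same minimum for a cluster. It also held none of 64 in wild type at 4 °C (upper limit 5.66%) and none of 18 in hen2-2 at 4 °C (upper limit 17.6%).

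**Figure D3:**
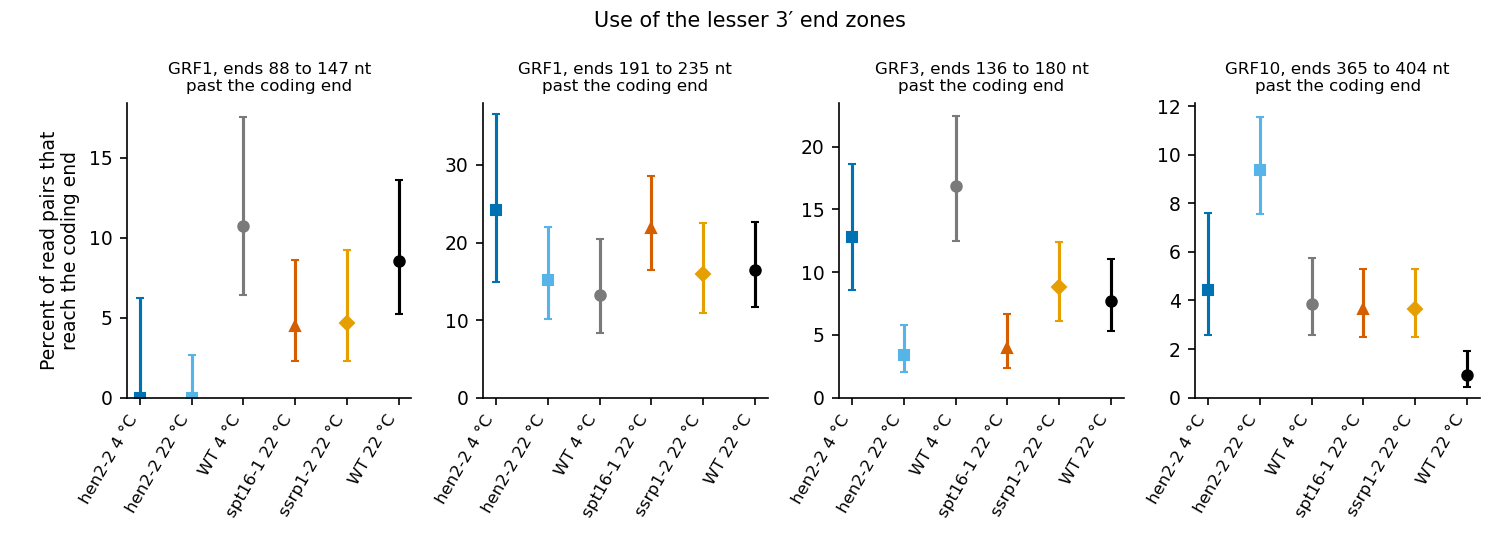
Share of the read pairs reaching the coding end that end in 4 lesser 3′ zones of GRF1, GRF3 and GRF10, in the 6 lists, with 95% Wilson intervals. The proximal zone of GRF3 is higher in each 4 °C list than in the 22 °C list of the same genotype, and the distal zone of GRF10 is lowest in wild type at 22 °C (0.932%).

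Clusters that start before the coding sequence and end before its end, called internal termination, were confined among these 10 genes to GRF10 and GRF7, with 270 and 3 read pairs. GRF10 had them in all 6 lists and GRF7 only in hen2-2 at 22 °C. The share of coding genes with such a cluster was 20.6% in hen2-2 at 4 °C, 19% in hen2-2 at 22 °C, 4.6% in wild type at 4 °C, 6.11% in spt16-1, 4.48% in ssrp1-2 and 6.65% in wild type at 22 °C. Short clusters at the start are those under 350 nt that overlap the stretch between 40 nt before the annotated start and 40 nt past the most used 5′ end, and they made up 244 of the 270 read pairs of GRF10 and all 3 of GRF7. The study's own class of short promoter-proximal RNA (sppRNA) has the same length limit but a window around the annotated start only, so the window used here is wider. The study used a TAIR10 gene annotation and the starts here are those of RefSeq, so the annotated starts can differ too. Short clusters were present at 16.6% of coding genes in hen2-2 at 4 °C, 14.5% in hen2-2 at 22 °C, 0.747% in wild type at 4 °C, 1.37% in spt16-1, 0.739% in ssrp1-2 and 2.11% in wild type at 22 °C. The other 8 members had none in any list. With the stretch set only around the RefSeq start of the gene, no member had a short cluster in any list, as the most used starts of GRF10 and GRF7 lie 196 and 72 nt further in.

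At GRF10 the short clusters were most abundant in wild type at 22 °C. There were 4 clusters with 29 read pairs in hen2-2 at 4 °C, 4 with 40 in hen2-2 at 22 °C, 2 with 9 in wild type at 4 °C, 4 with 38 in spt16-1, 2 with 8 in ssrp1-2 and 7 with 120 in wild type at 22 °C. In RPM these are 70.6 (47.3 to 101), 50.4 (36.0 to 68.6), 13.0 (5.96 to 24.8), 41.1 (29.1 to 56.4), 11.3 (4.90 to 22.4) and 142 (118 to 170), in the same order of lists. Wild type at 22 °C stood above the other 5, with no overlap of intervals. As a share of all GRF10 read pairs they were 9.70% in hen2-2 at 4 °C, 4.68% in hen2-2 at 22 °C, 1.49% in wild type at 4 °C, 5.17% in spt16-1, 1.10% in ssrp1-2 and 13.5% in wild type at 22 °C. On this scale the intervals of hen2-2 at 4 °C (6.84 to 13.6) and wild type at 22 °C (11.4 to 15.9) overlap.

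The direction at GRF10 was opposite in the 2 comparisons of hen2-2 with wild type. At 22 °C the short read pairs were lower in hen2-2 (log2 ratio -1.50, -2.05 to -0.97), whereas 176 of 207 genes with 20 or more short read pairs in both lists together were higher in hen2-2. At 4 °C they were higher in hen2-2 (2.44, 1.32 to 3.70), as were 144 of 146 such genes. In wild type, GRF10 had fewer at 4 °C than at 22 °C (-3.45, -4.61 to -2.48), where 36 of 39 genes were lower. In hen2-2 the ratio was 0.49 (-0.25 to 1.21). In spt16-1 (-1.79, -2.36 to -1.26) and ssrp1-2 (-3.65, -4.89 to -2.62) they were lower than in wild type, where 35 of 49 and 33 of 38 genes were lower. The minimum of 20 counts both lists together, so genes pass more easily through the list with more short read pairs. The counts of genes in all these comparisons therefore lean towards that list and are no independent check of GRF10. GRF10 ranked 5 among 226 genes with short clusters in wild type at 22 °C, and 56 among 1629 in hen2-2 at 22 °C. Over all coding genes, short clusters took 3.35% of read pairs in hen2-2 at 4 °C and 2.10% in hen2-2 at 22 °C. They took 0.382% in wild type at 22 °C, 0.250% in spt16-1, 0.132% in ssrp1-2 and 0.101% in wild type at 4 °C.

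**Figure D4:**
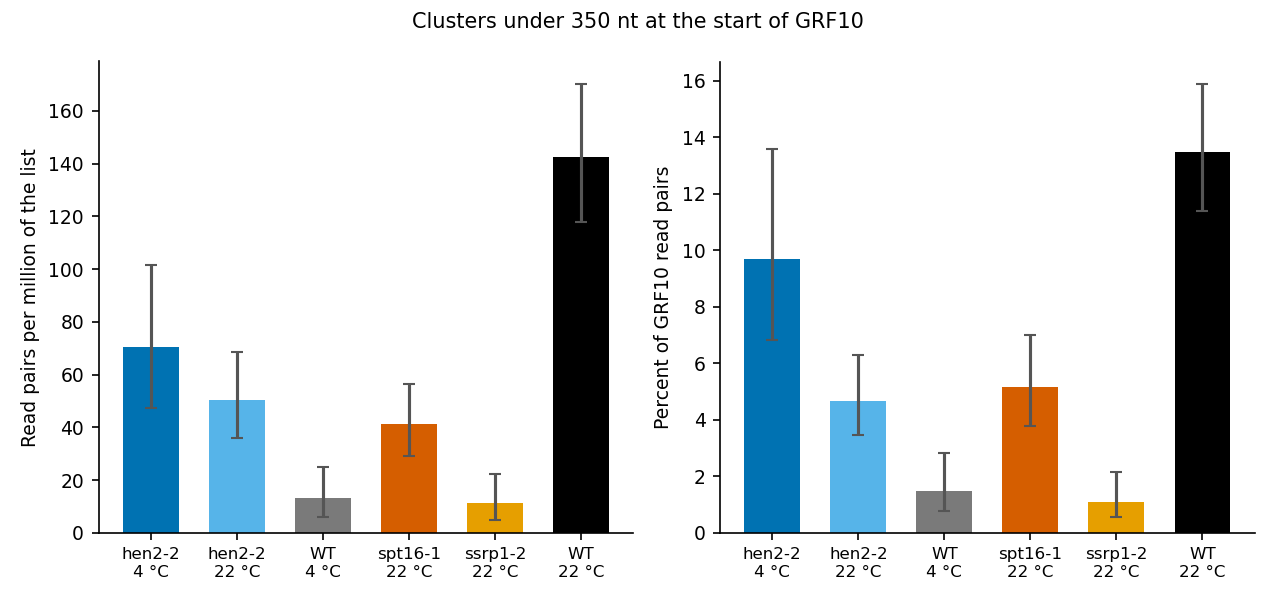
Read pairs in clusters under 350 nt at the start of GRF10, in RPM (left, 95% Poisson intervals) and as a percent of all GRF10 read pairs (right, 95% Wilson intervals). Wild type at 22 °C is highest on both scales, at 142 RPM and 13.5%.

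The early ends of GRF10 fell into 5 zones. The most used zone lay in the 5′-UTR, 26 to 21 nt before the start codon, at the first of the sequences shown above, and held 146 read pairs, of which 16 were from hen2-2 at 4 °C, 23 from hen2-2 at 22 °C, 9 from wild type at 4 °C, 12 from spt16-1, 4 from ssrp1-2 and 82 from wild type at 22 °C. A second zone around the start codon, from 1 nt before it to 19 nt after it, held 58, and another at 48 to 68 nt, which runs over the end of the first coding exon into the intron, held 44. In a later coding exon, 569 to 577 nt past the start codon, a further zone held 19 read pairs, of which 3 each were from hen2-2 at 22 °C and spt16-1 and 13 from wild type at 22 °C. The last, at 426 nt, held 3 in spt16-1. The 10 genomic bases after the first early end hold 7 A, and 1.95% of the 2309 genes with short clusters have 7 or more there, with a median of 3. The study had removed clusters that end at genomic runs of A. The part of this base composition in the counts was not tested.

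**Figure D5:**
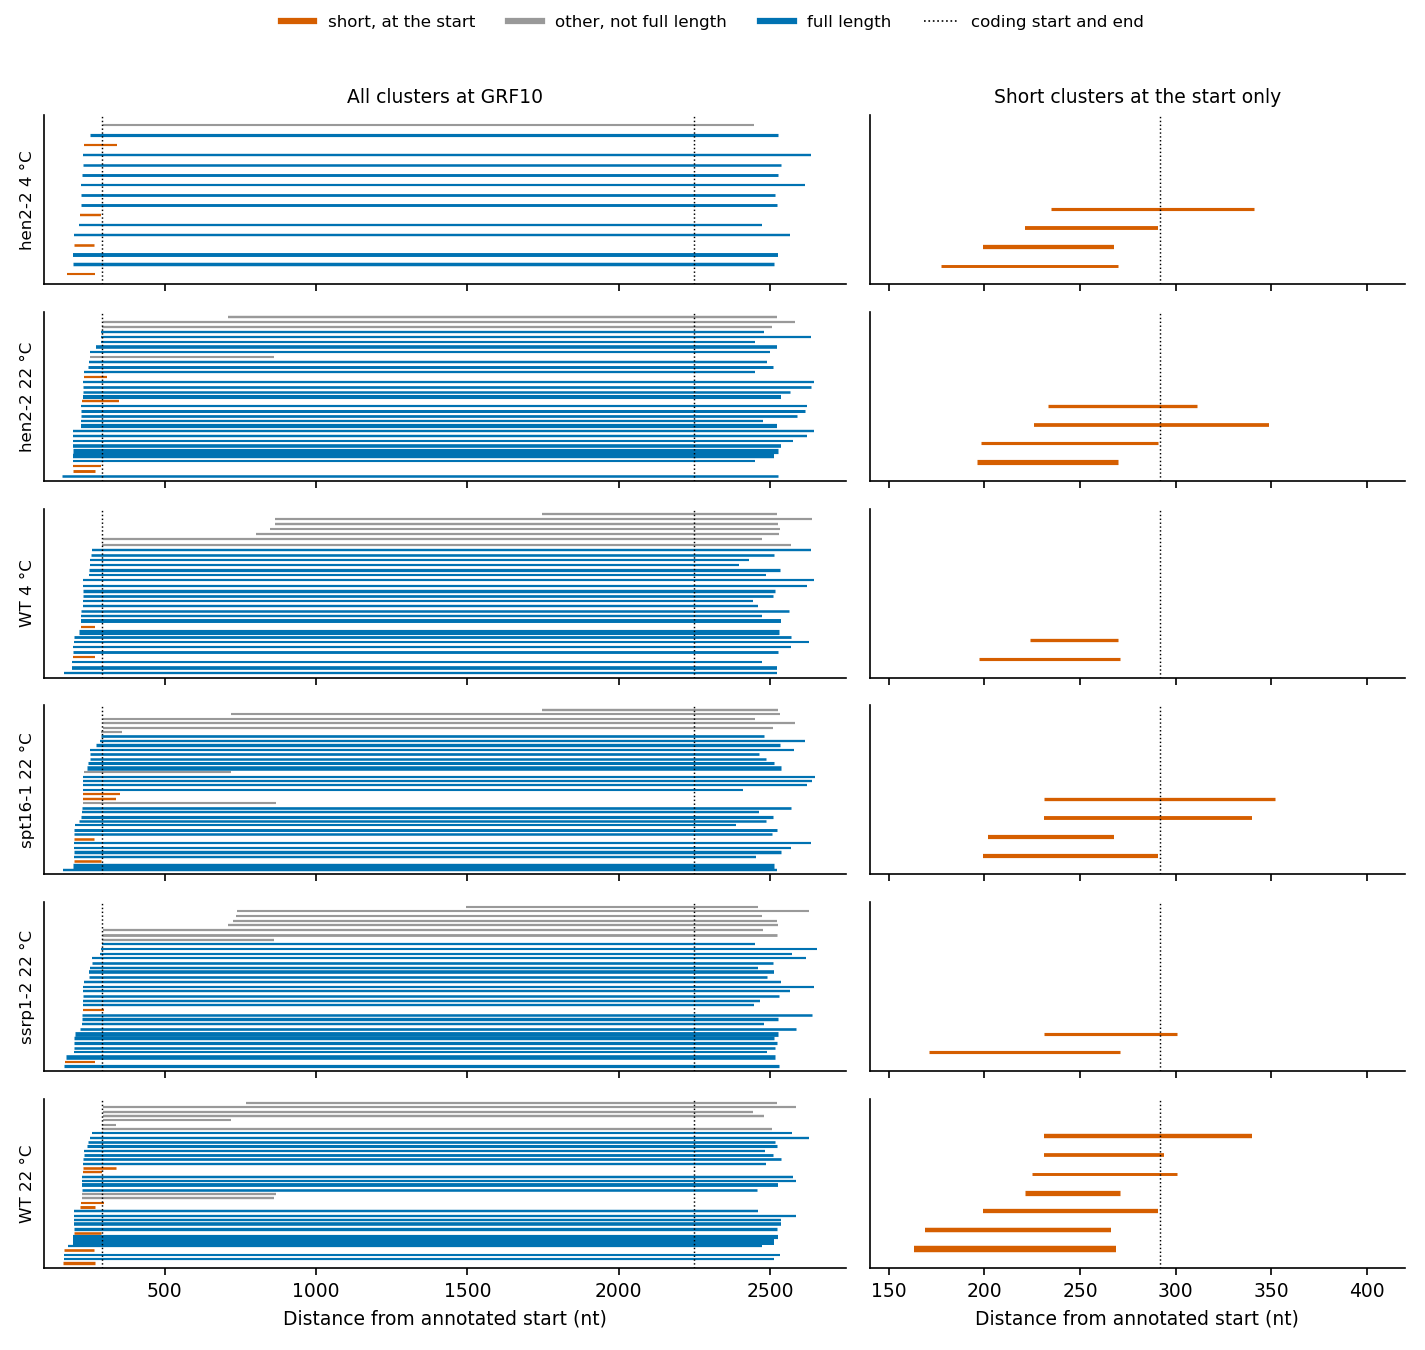
Clusters at GRF10 in the 6 lists, drawn from 5′ to 3′ end as distance from the annotated start, with line width growing with read pairs (all clusters left, short clusters at the start right, on a wider scale). Short clusters begin among the full-length starts and end on either side of the start codon (dotted), with 7 of them in wild type at 22 °C and 2 in wild type at 4 °C and in ssrp1-2.

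Clusters that start inside the coding sequence and end at the usual PAS were found at 8 loci and held 414 read pairs, of which 114 started within 20 nt of the start codon, the distance over which ends were joined into clusters. Over the 10 loci they made up 2.68% of read pairs in hen2-2 at 4 °C, 1.94% in hen2-2 at 22 °C, 3.14% in wild type at 4 °C, 2.81% in spt16-1, 4.02% in ssrp1-2 and 2.58% in wild type at 22 °C, against 7.85% to 10.7% over all coding genes. Summed over the lists, GRF6 had the largest share (12.2%), with 20 of 75 read pairs in hen2-2 at 4 °C (26.7%, 18.0 to 37.6), 20 of 171 in hen2-2 at 22 °C (11.7%, 7.70 to 17.4), 3 of 173 in wild type at 4 °C (1.73%, 0.591 to 4.97), 46 of 316 in spt16-1 (14.6%, 11.1 to 18.9), 33 of 231 in ssrp1-2 (14.3%, 10.4 to 19.4) and 21 of 205 in wild type at 22 °C (10.2%, 6.80 to 15.2). Wild type at 4 °C was the lowest, and its interval overlaps none of the others. Both FACT mutants lay above wild type at 22 °C, with overlapping intervals. GRF6 also had clusters wholly inside its 3′-UTR, with 7 read pairs in hen2-2 at 4 °C, 3 in hen2-2 at 22 °C and 19 in wild type at 22 °C. GRF10 had 156 read pairs (3.80%) and GRF8 34 (8.76%) with an internal start over the 6 lists, and GRF4 and GRF7 had none. In wild type GRF8 stood above GRF6, with 11 of 63 read pairs (17.5%) at 4 °C and 8 of 67 (11.9%) at 22 °C. At GRF10, 3 further clusters with 12 read pairs in ssrp1-2 and wild type at 22 °C lay wholly inside the coding sequence.

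Each locus was checked for overlap with other genes. The 50 bases inward from the most used 5′ and 3′ ends of each member occur once in the genome, so these tags do not tie members to each other or to another locus. GRF1 (chr4:5775210-5777481, plus strand) overlaps its convergent neighbour TL29 (AT4G09010) at its 3′ end, and GRF9 (chr2:17731830-17733982, minus strand) overlaps AT2G42580 by a few bases. No other member overlaps a coding gene. The overlap at GRF1 carried TL29 clusters in all 6 lists, 44 read pairs in hen2-2 at 4 °C, 43 in hen2-2 at 22 °C, 81 in wild type at 4 °C, 52 in spt16-1, 84 in ssrp1-2 and 19 in wild type at 22 °C. Wild type at 22 °C had the fewest. Clusters were assigned by strand.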

How the data were processed

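Of 18 samples, 12 TIF-seq libraries in 6 pooled lists were used, and the 6 TSS-seq samples were not analysed here. For each TIF-cluster, the authors deposited how many read pairs it joins, a raw count. The authors aligned reads to TAIR10 with STAR 2.6.1c, kept unique alignments, removed PCR copies by molecular identifiers, merged replicates, joined read pairs whose ends lay within 20 nt, and removed clusters with under 3 read pairs, with 3′ ends at runs of A, or without a known TSS. A locus with no cluster in a list can therefore hold up to 2 read pairs a cluster, and no fold is given for it.

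Starts were shifted to count from 1. Clusters were assigned to the coding gene of the same strand with the largest overlap (27444 genes, RefSeq annotation of TAIR10.1, which credits TAIR and Araport). Read pairs were scaled to 1000000 in each whole list (RPM). Intervals are Poisson (levels), Wilson (shares) and exact conditional binomial (ratios), and the code was tested on simulated data. Named are all 10 members, their main clusters and zones, the partners past 2-fold (1 result among them is not reported here), and the 3 genes nearest to the member with the most read pairs. The members and lists were chosen with earlier results of these data known. The alternatives were other scalings, minimum counts, coding spans, windows and joining distances. Intervals came from scipy 1.17.1, tables from pandas 2.3.3 with numpy 2.4.6, and plots from matplotlib 3.10.9, all under Python 3.11.15.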

Additional observations from a re-analysis of the deposited data

Results flagged for a closer look

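Read pairs in the hen2-2 lists against wild type moved in opposite directions in short clusters at the start of GRF10, with a log2 ratio of -1.50 at 22 °C and 2.44 at 4 °C. The difference between the 2 ratios was not tested, since each list is a single pool, and the ratio at 4 °C rests on 29 read pairs in hen2-2 against 9 in wild type.

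On the strand opposite to GRF1, outside the comparisons of the family, read pairs that overlap its 3′ end were above wild type at 22 °C in the 5 other lists. There were 44 in hen2-2 at 4 °C, 43 in hen2-2 at 22 °C, 81 in wild type at 4 °C, 52 in spt16-1 and 84 in ssrp1-2, against 19 in wild type at 22 °C. All of them were assigned to TL29 (AT4G09010), and in RPM they give log2 ratios to wild type at 22 °C of 2.25, 1.26, 2.38, 1.32 and 2.40 in that order of lists.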

How the results depend on the processing

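No paired analysis was possible because each deposited list pools its 2 libraries, and for the same reason no library could be left out. Among values that answer a comparison, 113 stayed within their error or 1.5 times and 39 moved. Centred on the median of all genes, the log2 ratio summed over the 10 loci was -0.0206 for hen2-2 at 22 °C, 0.108 for hen2-2 against wild type at 4 °C, -0.0333 for cold in hen2-2, -0.181 for spt16-1 and 0.0228 for ssrp1-2. For hen2-2 against wild type at 4 °C it was 0.0405 when scaled to full-length read pairs and 0.0392 with the same minimum RPM in all lists. The 1 member called 2-fold there became 0 under these 3 scalings, and 2 with only full-length clusters or with clusters of at least 5 read pairs. The 1 called for cold in hen2-2 became 0 when centred or with the same minimum, and the 1 called in ssrp1-2 became 0 with the same minimum or with 50 read pairs required. GRF7 fell short of 2-fold in 5 alternatives, at -0.96, -0.89 and -0.81 against wild type at 4 °C and at -0.93 and -0.99 against hen2-2 at 22 °C.

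With clusters of at least 5 read pairs, the full-length share was 96.4% in hen2-2 at 4 °C, 97.3% in hen2-2 at 22 °C, 98.1% in wild type at 4 °C, 96.4% in spt16-1, 97.1% in ssrp1-2 and 92.8% in wild type at 22 °C, and the shares of internal termination and of short clusters in ssrp1-2 were 0. With the window at the annotated start only, the share of short clusters was 0 in all 6 lists. The loci with 2 or more 3′ zones became 0 when ends under 50 nt apart were joined. Merged within 50 nt at both ends, the full-length isoforms numbered 21 in hen2-2 at 4 °C, 41 in hen2-2 at 22 °C, 30 in wild type at 4 °C, 39 in spt16-1, 37 in ssrp1-2 and 29 in wild type at 22 °C, and with the same minimum RPM there were 73 in ssrp1-2 and 68 in wild type at 22 °C. The cause of these moves was not tested beyond the change each setting makes.

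Over all coding genes, the number 2-fold apart was 1516 (hen2-2 at 22 °C), 1382 (hen2-2 against wild type at 4 °C), 1722 (cold in wild type), 1598 (cold in hen2-2), 1598 (spt16-1) and 1567 (ssrp1-2). With 50 read pairs required it was 581, 561, 825, 662, 697 and 704 in the same order. With no minimum it was 2377 for hen2-2 at 22 °C and 2124 for hen2-2 against wild type at 4 °C, and at 1.5-fold it was 2990, 2558, 3146, 2838, 3199 and 3024. In hen2-2 at 4 °C, the shallowest list, 3 read pairs are 7.31 RPM, so clusters listed elsewhere can be missing there.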
